A study of Rattus norvegicus with 19 samples.

Results

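The proteasome genes were taken as all probe sets annotated to exactly 1 gene whose symbol has the form Psma to Psmg followed by a number. They came to 46 genes of the 13810 measured on 2 Affymetrix array types, with 43 genes (46 probe sets) on the first type, 10 genes (15 probe sets) on the second and 7 genes on both. The pattern is one of names, so it also takes Psmc3ip, a meiotic recombination factor, and Psme3ip1, a partner of a proteasome activator, neither of which is a proteasome subunit. A further 6 probe sets of the first type and 1 of the second were annotated to several genes, among them those of Psme3 and of the caspase-like beta subunit Psmb6, and were left out.

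Adult rats (the labels give no strain, sex or exact age) were fasted overnight and given 1 intraperitoneal dose of pregnenolone-16α-carbonitrile (PCN), at 100 mg/kg, or of the corn oil vehicle. PCN, a steroid made by synthesis, is a ligand of the pregnane X receptor of rodents, which switches on drug metabolism. Livers were taken 8 h later, so that both groups shared the fast, the injection and the interval. The labels number 5 biological replicates in each group. The first array type had 5 corn oil and 5 PCN arrays and the second 4 corn oil arrays (no replicate 2) and 5 PCN arrays. The study asked whether PCN activates genes other than those of drug metabolism, as protection against stress.

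The proteasome degrades proteins tagged with ubiquitin. Its barrel-shaped core particle (the 20S particle) stacks rings of alpha subunits, which gate the barrel, on rings of beta subunits, 3 of which (Psmb5, Psmb6 and Psmb7) carry the cutting sites. The regulatory particle (the 19S particle) caps the barrel: its ATPases (Psmc genes) unfold the substrate, and its other subunits (Psmd genes) bind ubiquitin chains and cut them off. In immune cells and under interferon the cutting subunits are exchanged for Psmb8, Psmb9 and Psmb10, which form the immunoproteasome and are known for making peptides for antigen presentation. In many cell types the genes of core and cap are controlled together, and the transcription factor Nfe2l1 is known to raise them when proteasome activity falls short.

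Values are log2 values per probe set, and the number of animals limits the precision of every comparison. A fold change is PCN over corn oil, SE is its standard error, and a gene was called where the Benjamini-Hochberg adjusted p of limma, taken over all probe sets of that array type, was below 0.05. Each gene is given by its brightest probe set. Proteasome genes were bright: 31 of the 46 probe sets on the first type and 9 of the 15 on the second lay in the 2 brightest of 10 groups of equal size, into which the probe sets tested were split by their mean value. Bright probe sets were shifted on the second type, where the brightest group had a median log2 fold change of 0.20, against -0.01 in that group of the first type. A fit in which every array was centred by brightness was therefore run beside the values as deposited. For it the 10 groups were drawn anew over all probe sets, also those too dim to be tested. It lowered the shift of the brightest group tested on the second type to a median of 0.05 and did not remove it. Corn oil replicate 2 and PCN replicate 4 of the first type stood apart a little. Their median correlations to the other arrays were 0.955 and 0.961, against 0.975 to 0.981 for the rest. In liver tissue, fewer cells of a type and less RNA per cell cannot be told apart.

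On the first array type 8 of the 43 genes rose after PCN and 0 fell, by the limma test or at an unadjusted p below 0.05. Over all 11106 probe sets tested, 2.31% were called higher and 0.945% lower, and 6.71% were lower at that unadjusted p. In the brightest group 4.41% were called higher, and in the next group 5.04%. The 8 genes were the cap subunits Psmd4, Psmd1, Psmc2, Psmc4 and Psmc5, the cap assembly factor Psmd5 and the core subunits Psma2 and Psmb2. Of the 43 genes 38 had a positive log2 fold change, as did 5555 of all 11106 probe sets, and the median was 0.28, against 0.00 over all probe sets. With each gene replaced by the median of its brightness group, the median was 0.03. The groups did not overlap, with every PCN animal above every corn oil animal, for 13 of the genes and for 3.99% of all probe sets. Counting either direction, they did not overlap for 11.2% of the brightest group and 10.2% of the next. At an unadjusted p below 0.05, 27 of the genes were higher, as were 11.0% of all probe sets. With arrays centred by brightness 9 genes rose, the same 8 and Psmd8 (2.38% of all probe sets were called higher), and the median was 0.24. At an unadjusted p below 0.05, 25 genes were then higher and 1 lower, Psmg4 (log2 fold change -0.23). Of all probe sets 10.2% were higher and 8.63% lower.

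**Figure D1:**
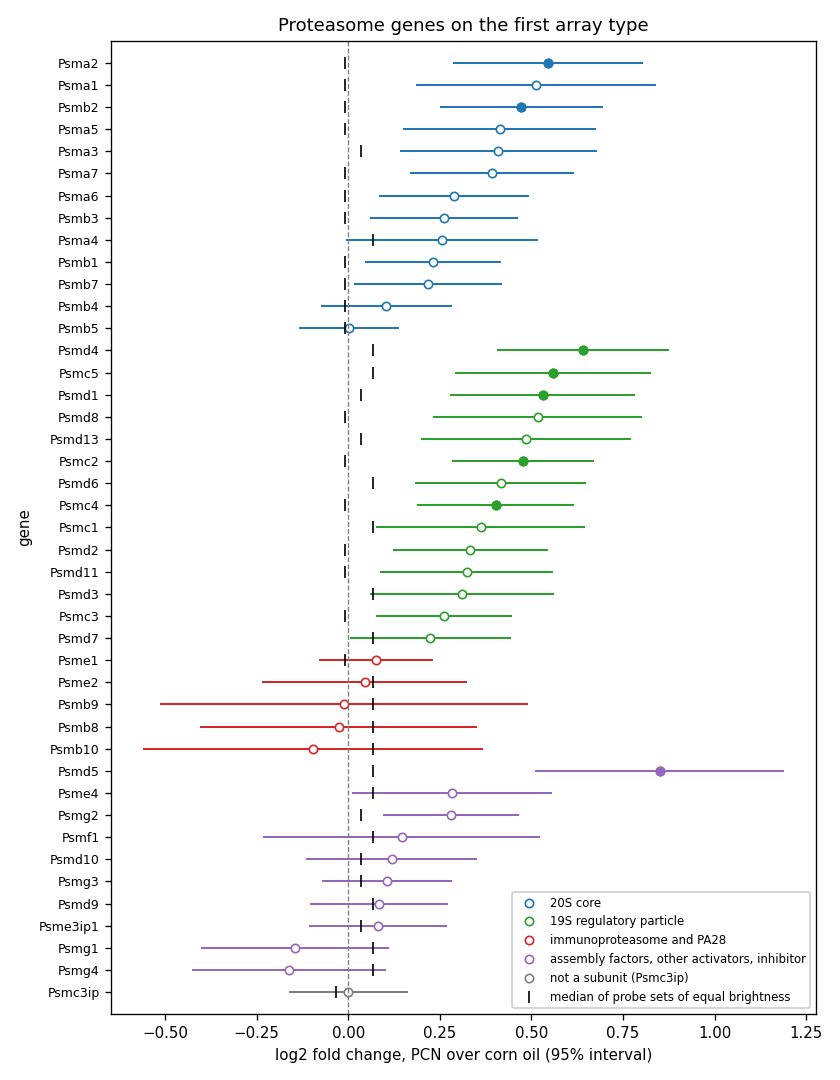
Log2 fold change of each of the 43 genes on the first array type, PCN over corn oil (horizontal axis, log2 units), with its 95% interval, grouped by class; filled points have an adjusted p below 0.05 and black ticks mark the median of all probe sets in the same brightness group. All 14 genes of the regulatory particle lie to the right of their tick, between 0.22 and 0.64, and the 5 immunoproteasome and PA28 genes lie between -0.10 and 0.08.

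Among the ATPases of the cap 3 of 5 genes rose, and all 5 were positive (median 0.40). Psmc2 read 11.71, 11.73, 11.69, 11.43 and 11.50 in the corn oil animals (replicates 1 to 5, as in all such lists) and 12.23, 12.02, 12.19, 12.05 and 11.95 in the PCN animals. Its groups were fully apart, and it rose 1.39-fold (log2 fold change 0.48 ± 0.09 SE, n = 5 per group, limma adjusted p = 0.0148). Psmc5 read 10.39, 10.14, 10.61, 10.26 and 10.16 in corn oil and 11.00, 10.72, 11.05, 10.99 and 10.59 after PCN. It rose 1.47-fold (0.56 ± 0.12 SE, adjusted p = 0.0310), with PCN replicate 5 just below corn oil replicate 3. Psmc4 read 11.07, 10.90, 11.20, 11.02 and 10.86 in corn oil and 11.56, 11.29, 11.55, 11.42 and 11.24 after PCN. It rose 1.32-fold (0.40 ± 0.10 SE, adjusted p = 0.0466), with groups that did not overlap. Psmc1 and Psmc3 stood at 0.36 and 0.26 (log2 fold change) with adjusted p values of 0.171 and 0.124.

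The remaining cap subunits gave 2 calls among 9 genes, all 9 positive, with a median of 0.42. Psmd4, a receptor for ubiquitin chains, had the smallest adjusted p of all members. It read 10.30, 9.94, 10.22, 9.98 and 9.95 in corn oil and 10.90, 10.53, 10.83, 10.70 and 10.64 after PCN. It rose 1.56-fold with the groups apart (0.64 ± 0.11 SE, adjusted p = 0.00901). Psmd1, a large scaffold subunit, read 9.14, 8.95, 9.13, 8.90 and 8.81 in corn oil and 9.70, 9.43, 9.74, 9.47 and 9.24 after PCN. It rose 1.44-fold (0.53 ± 0.12 SE, adjusted p = 0.0304), again without overlap.

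A further 4 genes of this group were apart between the groups without passing the test: Psmd8 (log2 fold change 0.52, adjusted p = 0.0537), Psmd6 (0.42, adjusted p = 0.0571), Psmd13 (0.49, adjusted p = 0.0678) and Psmd2 (0.33, adjusted p = 0.0881). Psmd8 read 11.14, 10.46, 11.07, 10.92 and 10.80 in corn oil and 11.47, 11.25, 11.28, 11.62 and 11.37 after PCN. Psmd3 (0.31, adjusted p = 0.182) and Psmd7 (0.22, adjusted p = 0.274) had the smallest values. Psmd11, a lid subunit, had 2 probe sets: the brighter stood at 0.32 (log2 fold change, adjusted p = 0.135) and the other rose by 0.52 (adjusted p = 0.0442).

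Psmd5 is a chaperone that holds cap ATPases during assembly and is absent from the finished particle. It had the largest change of all members on the first type. It read 10.13, 9.32, 9.76, 9.60 and 9.67 in corn oil and 10.75, 10.26, 10.57, 10.81 and 10.33 after PCN, so that the lowest PCN animal was above the highest corn oil animal. It rose 1.80-fold, from 9.69 ± 0.29 to 10.54 ± 0.24 (SD, n = 5 each; log2 fold change 0.85 ± 0.16 SE, adjusted p = 0.0143). The other chaperones of cap assembly, Psmd10 and Psmd9, stood at 0.12 and 0.08 (adjusted p = 0.610 and 0.656), with 95% intervals from -0.11 to 0.35 and from -0.10 to 0.27. Whether Psmd5 differed from these 2 genes was not tested.

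**Figure D2:**
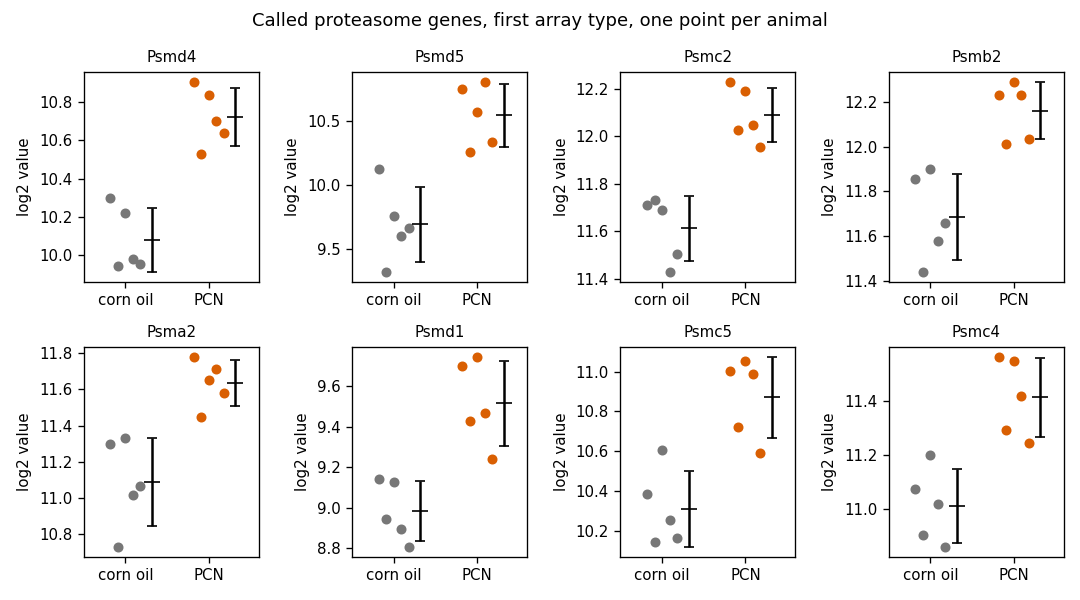
Log2 value of the 8 called genes on the first array type (vertical axis, a scale of its own in each panel), with 1 point per animal, 5 corn oil in grey and 5 PCN in orange, and mean ± SD in black beside them. The groups are apart in every panel but that of Psmc5, where PCN replicate 5 (10.59) lies just below corn oil replicate 3 (10.61).

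In the alpha ring of the core 1 of 7 genes rose, all 7 were positive, and their median was 0.41. Psma2 read 11.30, 10.73, 11.33, 11.02 and 11.07 in corn oil and 11.78, 11.45, 11.65, 11.71 and 11.58 after PCN. It rose 1.46-fold without overlap (0.55 ± 0.12 SE, adjusted p = 0.0303). Psma1 was also apart between the groups, but corn oil replicate 2 read 10.47 where the other corn oil animals read 11.01 to 11.44, and its adjusted p was 0.0917 (log2 fold change 0.51). Psma7, Psma5, Psma3, Psma6 and Psma4 had log2 fold changes of 0.39, 0.41, 0.41, 0.29 and 0.26, with adjusted p values from 0.0618 to 0.292.

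The beta ring had smaller values, with a median of 0.22 over 6 genes, and 1 call. Psmb2 read 11.85, 11.44, 11.90, 11.58 and 11.66 in corn oil and 12.23, 12.01, 12.29, 12.23 and 12.04 after PCN. It rose 1.39-fold without overlap (0.47 ± 0.10 SE, adjusted p = 0.0298). Psmb3, Psmb1, Psmb7 and Psmb4 had log2 fold changes of 0.26, 0.23, 0.22 and 0.10, with adjusted p values of 0.162, 0.179, 0.249 and 0.554. Psmb5, which carries the chymotrypsin-like site, read 12.27, 12.36, 12.44, 12.33 and 12.26 in corn oil and 12.34, 12.36, 12.38, 12.32 and 12.26 after PCN. Its log2 fold change was 0.00 ± 0.06 SE (adjusted p = 0.990), with a 95% interval from -0.13 to 0.14. These are the narrowest limits of any member on the first type, and they leave out the 1.32-fold to 1.80-fold rises of the called genes. The sign for Psmb5 turned negative under each of the 5 rescalings run, at -0.02 when centred by brightness. As deposited, Psmb5 stood 0.01 above the median of its brightness group among the probe sets tested.

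The promoters of the members were searched for the core of the antioxidant response element, which Nfe2l1 and Nfe2l2 are known to bind, spelled TGACNNNGC, and for the CCAAT box, CCAAT, each on both strands. RefSeq windows of the rat build GRCr8, from 250 bases before to 50 after the start of a gene, were at hand for 42 of the 46 genes. The antioxidant core occurred in 7 of 42 windows (16.7%) and in 12.2% of all 27457 windows, and CCAAT in 22 (52.4%) and in 37.7%. Among the 9 called genes with a window, counting calls on either array type, 2 held the antioxidant core and 4 a CCAAT. The 3 stretches printed here, 49 bases each and in capitals where they match the antioxidant core, set the called genes Psmb2 and Psmd1 beside Psmb5.
Psmb2: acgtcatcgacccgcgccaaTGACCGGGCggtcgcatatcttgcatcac
Psmd1: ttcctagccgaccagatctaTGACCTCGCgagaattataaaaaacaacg
Psmb5: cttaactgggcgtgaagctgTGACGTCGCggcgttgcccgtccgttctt

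These stretches lie at chr5:144254970-144255018 (plus strand), chr9:94157786-94157834 (plus strand) and chr15:32047411-32047459 (minus strand), and the match begins 68, 165 and 60 bases before the start of the gene. In Psmb2 a CCAAT box ends on the first letter of the match. Psmd4, Psmd5, Psmd7, Psmc2, Psmc4, Psmc5 and Psma2 were called with no antioxidant core in their windows, and Psmb5 held one at a log2 fold change of 0.00. A match is a description of the letters and not of binding, and its absence from a window says nothing of the factor.

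The immunoproteasome genes had values near 0 and a wide spread between animals. Psmb8, the counterpart of Psmb5, read 11.52, 11.11, 10.89, 10.53 and 10.62 in corn oil and 10.92, 10.61, 11.07, 10.91 and 11.03 after PCN. Psmb9, the counterpart of Psmb6, read 10.21, 9.93, 9.60, 8.92 and 9.40 in corn oil and 9.56, 9.03, 9.87, 9.69 and 9.85 after PCN. Psmb10, the counterpart of Psmb7, read 9.98, 10.34, 9.61, 9.37 and 9.45 in corn oil and 9.66, 9.06, 9.61, 9.999 and 9.94 after PCN. In all 3 genes corn oil replicates 1 and 2 were the highest corn oil animals, PCN replicate 2 was the lowest PCN animal, and the groups overlapped. Their log2 fold changes were -0.03 ± 0.17, -0.01 ± 0.23 and -0.10 ± 0.21 (SE), with adjusted p values of 0.950, 0.982 and 0.850.

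Within the corn oil group the SD was 0.40 for Psmb8, 0.50 for Psmb9 and 0.41 for Psmb10, against 0.07 for Psmb5 and 0.19 for Psmb7. Over the core genes it ran from 0.07 (Psmb5) to 0.37 (Psma1). The 95% intervals for the log2 fold change ran from -0.40 to 0.35, from -0.51 to 0.49 and from -0.56 to 0.37, so that a change of the size seen in Psmb2 (0.47) lies outside the first and the third and inside the second. The interferon-inducible activator PA28 is made of Psme1 and Psme2, which stood at 0.08 ± 0.07 and 0.05 ± 0.13 on the log2 scale (adjusted p = 0.621 and 0.882). As deposited, limma called 0 of these 5 genes in either direction (0 also at an unadjusted p below 0.05). Their signs were not fixed: 2 of 5 were positive as deposited, 0 when arrays were centred on the probe sets that both types share, and 5 with array weights. The largest shift came with a term for 2 sets of arrays from an earlier analysis, without corn oil replicate 2. There 1 of 5 was positive, the median was -0.29 and the lowest value -0.38. In that fit 4 members of any class were lower at an unadjusted p below 0.05, as were 969 of all probe sets, and 0 members were called lower. With the array SD as a covariate, chosen after seeing the data, the median of the 5 was -0.19. No test compared them with the core or the cap.

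**Figure D3:**
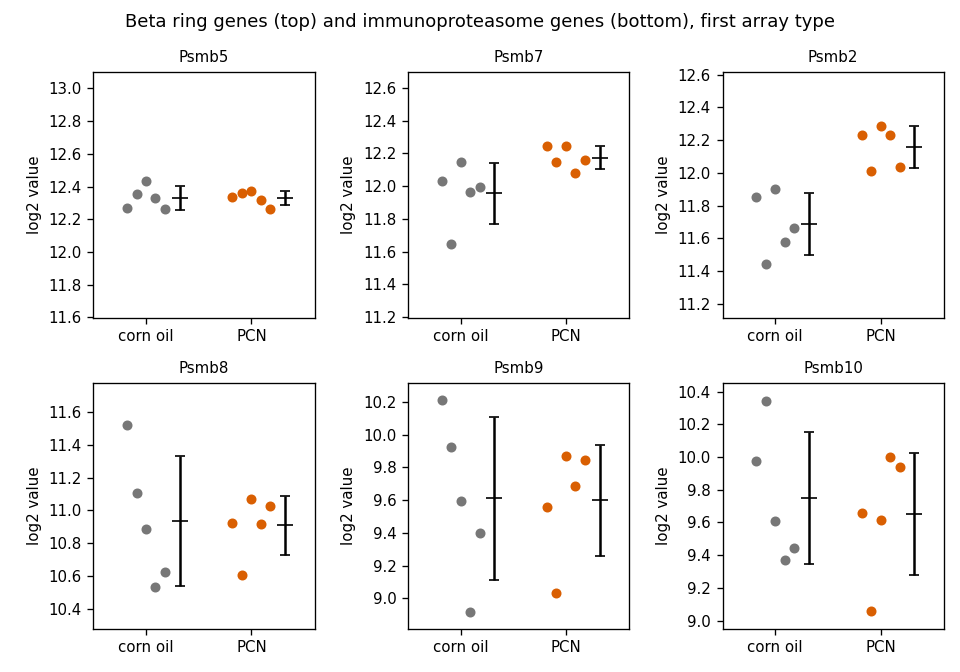
Log2 values per animal on the first array type for 3 beta ring genes (top row) and the 3 immunoproteasome genes (bottom row), with 5 corn oil animals in grey, 5 PCN animals in orange and mean ± SD in black; every vertical axis spans the same range. Psmb2 is apart between groups, Psmb5 has almost no spread (SD 0.07 and 0.04), and Psmb8, Psmb9 and Psmb10 overlap throughout.

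The other members gave no call. Psme4, an activator that needs no ATP, had 3 probe sets, at 0.28, 0.35 and 0.51 on the log2 scale (adjusted p = 0.263, 0.243 and 0.219). Of the chaperones that assemble the core, Psmg2 was apart between the groups (log2 fold change 0.28, adjusted p = 0.101), while its partner Psmg1 had a value of -0.15 (adjusted p = 0.566). The second pair, Psmg3 and Psmg4, had values of 0.11 and -0.16 (adjusted p = 0.542 and 0.535). Psmf1, which binds the core and inhibits it in vitro, had a value of 0.15 (adjusted p = 0.708). The non-subunits Psmc3ip and Psme3ip1 had values of 0.00 and 0.08 (adjusted p = 1.0 and 0.667).

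The single animals show how these differences were made up. Averaged over its 14 genes, the cap stood at -0.10, -0.27, -0.03, -0.29 and -0.37 in the corn oil animals and at 0.34, 0.07, 0.33, 0.22 and 0.09 in the PCN animals, in log2 units from each gene's mean over the 10 arrays. The core, over 13 genes, stood at -0.06, -0.26, 0.03, -0.25 and -0.25 and at 0.24, 0.09, 0.25, 0.15 and 0.06. Corn oil replicate 3 was thus the highest control and PCN replicates 2 and 5 the lowest treated animals in both. The brightest group of all probe sets ran from -0.09 to 0.07, lowest in PCN replicate 2.

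**Figure D4:**
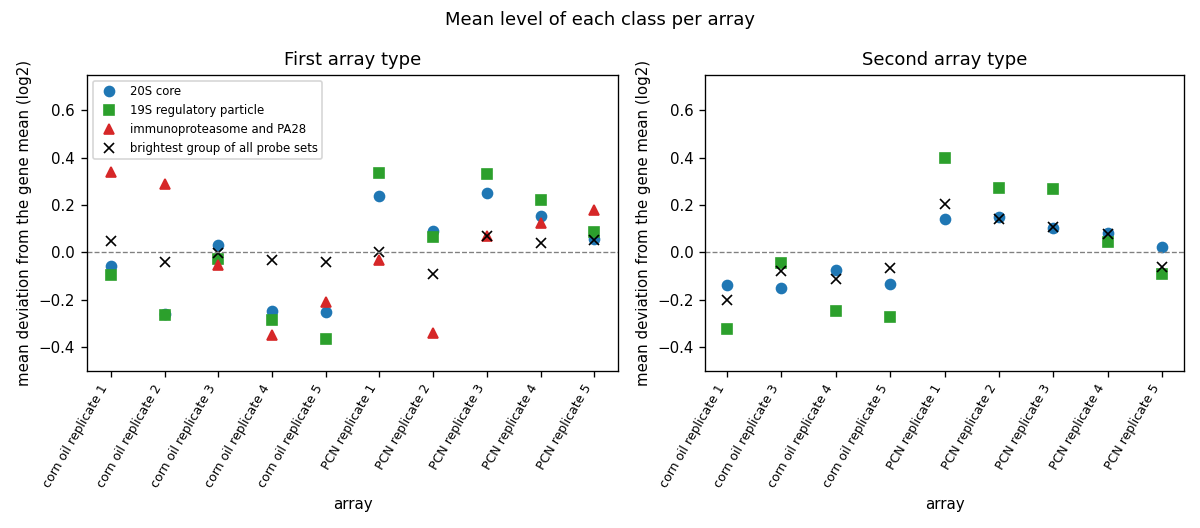
Mean deviation from each gene's mean over all arrays (vertical axis, log2 units) for the core, the cap, the immunoproteasome with PA28 (first type alone) and the brightest group of all probe sets, on each array of the first type (left) and the second type (right). On the first type the cap runs from -0.37 to -0.03 in corn oil and from 0.07 to 0.34 after PCN while the brightest group stays within -0.09 to 0.07; on the second type the brightest group itself runs from -0.20 to -0.07 and from -0.06 to 0.20.

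All 14 genes of the cap were positive in each of the 10 fits that left out 1 array and the 14 other alternatives run on the first type, with medians from 0.30 to 0.46. The calls were less steady. Psmd4, Psmc2 and Psmd5 were called when any 1 array was left out, and were the 3 calls that remained without corn oil replicate 4, corn oil replicate 5, PCN replicate 1, PCN replicate 3 or PCN replicate 4. With a term for 2 sets of arrays taken from an earlier analysis of these data, and without corn oil replicate 2, Psmd4 and Psmc2 were the 2 calls kept (adjusted p = 0.0481 and 0.0483).

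On the second array type 4 of 10 genes rose, and 0 fell by the limma test or at an unadjusted p below 0.05. Of the 10693 probe sets tested 3.76% were called higher and 1.64% lower, and 14.1% were lower at that unadjusted p. In the brightest group, which held 7 of the 15 member probe sets, 14.6% were called higher, and in the next group 6.74%. Psmd14, the deubiquitinase of the cap, read 9.14, 9.39, 8.97 and 9.06 in corn oil (replicates 1, 3, 4 and 5) and 10.47, 10.19, 10.05, 9.96 and 9.38 after PCN (replicates 1 to 5). It rose 1.83-fold (log2 fold change 0.87 ± 0.18 SE, n = 4 and 5, limma adjusted p = 0.0245), with PCN replicate 5 at the level of corn oil replicate 3. Its 2 other probe sets gave 0.81 (adjusted p = 0.0395) and 0.59 (adjusted p = 0.0896).

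Psmd12, a lid subunit, read 7.91, 8.49, 8.15 and 7.95 in corn oil and 9.32, 8.93, 9.16, 8.65 and 8.37 after PCN, and rose 1.69-fold (adjusted p = 0.0391). Psmd7, which forms a pair with Psmd14, read 9.44, 10.06, 9.82 and 9.89 in corn oil and 10.71, 10.41, 10.59, 10.28 and 10.04 after PCN, and rose 1.52-fold (adjusted p = 0.0434). In both genes PCN replicate 5 was the 1 treated animal inside the corn oil range. Psma7 read 8.11, 8.09, 8.04 and 8.01 in corn oil and 8.80, 8.71, 8.58, 8.38 and 8.38 after PCN. It rose 1.42-fold (adjusted p = 0.0190) and was the 1 member gene of 10 with groups fully apart and higher (5.06% of all probe sets were). In the brightness group of Psma7 13.4% of probe sets had groups fully apart, counting either direction.

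The remaining genes of the second type were not called. Psmc6, a cap ATPase, had log2 fold changes of 0.40 and 0.38 by its 2 probe sets (adjusted p = 0.0963 and 0.0771). Psmb5, Psmd9, Psmd11, Psmc4 and Psme1 had values from -0.18 to -0.06, with adjusted p values from 0.295 to 0.667. The other probe set of Psmb5 stood at -0.08 (limma adjusted p = 0.427), with every PCN animal below every corn oil animal. Of all probe sets 5.32% were apart in that direction. Centred by brightness its groups overlapped. In all, 5 of 10 genes were positive, as were 4396 of all 10693 probe sets and 77.5% of the brightest group. The median was 0.17. With each gene replaced by the median of its brightness group, it was 0.13. On this type 51.5% of all probe sets held the same value on at least 2 arrays (0.435% on the first). For Psmc4, 5 of the 9 arrays read exactly 7.30.

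**Figure D5:**
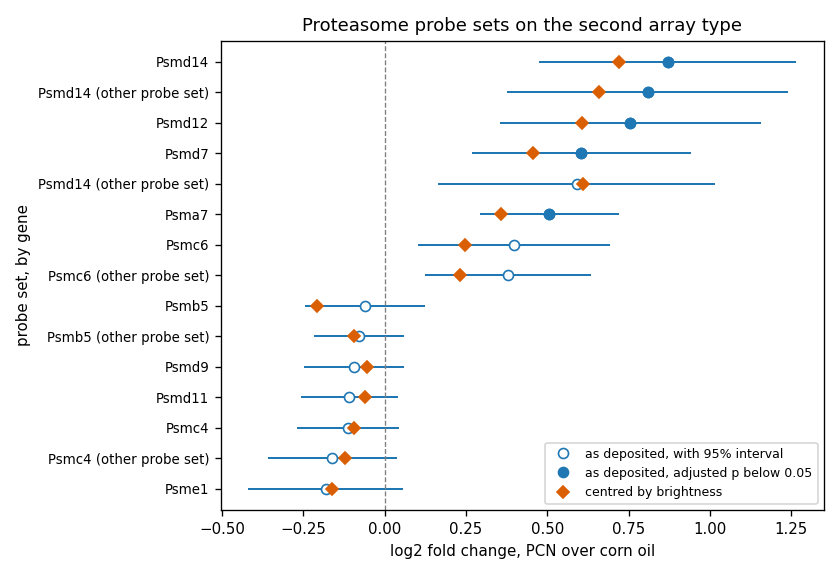
Log2 fold change of the 15 member probe sets of the second array type, PCN over corn oil (horizontal axis, log2 units), as deposited with 95% intervals in blue (filled where the adjusted p is below 0.05) and centred by brightness in orange. Psmd14, Psmd12, Psmd7 and Psma7 stay to the right of 0 on both scales, at 0.72, 0.61, 0.46 and 0.36 when centred by brightness.

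Centring by brightness lowered these rises, and the calls of Psmd14 (limma adjusted p = 0.0318) and Psma7 (adjusted p = 0.0419) were kept while those of Psmd12 (adjusted p = 0.0574) and Psmd7 (adjusted p = 0.0632) were lost (2.78% of all probe sets were called higher). The array SD over all probe sets was 1.46 to 1.496 in corn oil and 1.49 to 1.57 after PCN on this type, and with it as a covariate limma called 0 member genes and 0 of all probe sets (1 member was higher and 0 lower at an unadjusted p below 0.05). The 4 log2 fold changes then ran from 0.11 (Psmd7) to 0.27 (Psma7). Only PCN replicate 5 (1.49) had an array SD inside the corn oil range, so that fit could hardly tell array SD from treatment. Without corn oil replicate 4 limma called 0 members (5 were higher at an unadjusted p below 0.05), and without corn oil replicates 1 or 5 or PCN replicates 1, 2 or 3 the call of Psma7 alone was left.

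For the 7 genes on both array types, measured in animals of the same numbers, the log2 fold changes stood as follows. Psma7 had 0.39 on the first type and 0.51 on the second, and Psmd7 0.22 and 0.60. Psmb5 had 0.00 and -0.06 (-0.08 by its other probe set of the second type), Psmd9 0.08 and -0.09, and Psme1 0.08 and -0.18. Psmc4 rose on the first type (0.40) and had -0.11 and -0.16 by 2 probe sets of the second, and Psmd11 had 0.32 and 0.52 on the first and -0.11 by a dim probe set of the second. The probe sets of a gene thus disagreed in sign for Psmb5 (just above 0 on the first type), Psmc4, Psmd9, Psmd11 and Psme1, 5 of the 7 genes. On the second type these 5 genes, none called there, had mean values of 8.52, 7.28, 6.74, 6.05 and 7.38, in that order. On the first type the means were 12.33, 11.21, 9.86, 11.74 and 12.23. Psma7 had means of 11.68 on the first type and 8.34 on the second, and Psmd7 10.57 and 10.14. No test compared the array types, and the part of brightness was not tested.

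Other genes of the pathway gave few calls. Among 9 listed partners of the proteasome measured on the first type 1 rose, Zfand5, a zinc finger protein that binds the proteasome (1.43-fold, adjusted p = 0.0306), and their median was 0.12. In the brightness group of Zfand5 5.04% of probe sets were called higher. On the second type its probe set stood at -0.23 (log2, adjusted p = 0.142). Adrm1, a ubiquitin receptor of the cap, was apart between the groups (0.34, adjusted p = 0.113), while Pomp, the chaperone of the maturing core, and the small cap subunit Sem1 had values of 0.02 and -0.02 (adjusted p = 0.922 and 0.933). On the second type Usp14, a deubiquitinase that sits on the cap, rose 1.71-fold (adjusted p = 0.0351) as 1 of 6 partners tested, and Sem1 had a value of 0.38 there (adjusted p = 0.0987). Both lay in the brightest group of that type, in which 14.6% of probe sets were called higher. Centred by brightness the adjusted p of Usp14 was 0.0513.

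Nfe2l1 was apart between the groups, at 0.40 ± 0.11 (log2 fold change, SE), but was not called by limma (adjusted p = 0.0693, and 0.130 when centred by brightness), and its relative Nfe2l2, known for antioxidant genes, had -0.03 ± 0.11 (adjusted p = 0.898). Limma called 0 of the 5 transcription genes measured (1 at an unadjusted p below 0.05), 0 of 2 ubiquitin-activating genes (0 at an unadjusted p below 0.05) and 0 of 11 antigen processing and interferon genes (1 at an unadjusted p below 0.05) on the first type. Of all probe sets of that type 11.0% were higher at that unadjusted p. The antigen processing and interferon list had a median of 0.09, from -0.16 (Gbp2) to 0.41 (Irf9, a factor of the interferon response, adjusted p = 0.235). On the second type 2 genes of that list were measured: Irf9 stood at 0.44 (adjusted p = 0.0987) and Isg15, an interferon-induced ubiquitin-like protein, at 0.86 (adjusted p = 0.102). Both were higher at an unadjusted p below 0.05, as were 13.2% of all probe sets there, and neither was called. Both lay in the brightest group of that type. Centred by brightness they stood at 0.29 and 0.71 (limma adjusted p = 0.247 and 0.195). Irf9 and Isg15 were singled out after their values were seen.

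Markers of other cell types were read for the genes that immune cells hold. On the first type 8 of 12 lymphocyte markers were measured and 3 were bright enough to be tested; Cd3d, Cd3e, Cd8a, Cd8b and Cd79b were below the limit. The log2 of the summed level of all 8 ran from 9.60 to 10.19 in corn oil and from 9.83 to 10.15 after PCN. For 6 of 10 Kupffer cell and macrophage markers it ran from 13.25 to 13.69 and from 13.36 to 14.01, and for the 8 hepatocyte markers (such as Alb and Apoa1) from 16.94 to 17.13 and from 16.94 to 17.10. The 7 stellate cell and fibroblast markers ran from 11.82 to 12.28 in corn oil and from 12.23 to 12.55 after PCN, and 3 red cell markers from 14.10 to 14.45 and from 13.62 to 14.28. Col3a1 was by far the brightest of the 7 (corn oil mean 11.20, next Col1a2 at 8.74). The 7 went both ways: Col1a1, Col1a2, Col3a1 and Dcn had log2 fold changes of 0.41, 0.40, 0.43 and 0.11, and Lrat, Acta2 and Des -0.16, -0.14 and -0.06. The neutrophil markers ran from 7.31 to 7.74 and from 7.59 to 8.62, and S100a9, the 1 of them tested, stood at 0.58 (log2 fold change, adjusted p = 0.153). Limma called 0 of 34 markers on the first type, where 3 were higher and 3 lower at an unadjusted p below 0.05 (11.0% and 6.71% of all probe sets were). It called 0 of 12 on the second, where 2 were higher and 3 lower (13.2% and 14.1% of all probe sets were). The 3 lower were lymphocyte markers: Cd3e, Cd8a and Ms4a1 had log2 fold changes of -0.15, -0.15 and -0.24, and Gzma had 0.08. On the first type Cd3g had -0.26 (lower at that unadjusted p), Cd4 0.09 and Nkg7 -0.01. The 2 higher on the second type were Cd163 (0.40), a macrophage marker, and Lyve1 (0.39, and -0.05 on the first type), an endothelial marker. All 6 macrophage markers tested on the first type and the 2 on the second were positive. The part of other cells in the proteasome values was not tested.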

How the data were processed

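Liver RNA of single rats was hybridised to 2 Affymetrix array types, 1 table of values for each. The authors deposited log2 values per probe set; the submitters' processing notes name MAS5, and the log2 scale was inferred from the range of the values (4.31 to 15.2 and 3.10 to 14.1). Scaling before deposit is not given in the sources used here. Each table was analysed alone. The 57 control probe sets per table were left out, symbols were updated through gene identifiers to RefSeq (GRCr8), and those whose mean lay under the 30th percentile were not tested; all 46 and 15 member probe sets passed. On the first type 12783 probe sets had 1 gene symbol, 312 several and 2828 none; on the second 7564, 100 and 7669.

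PCN was compared with corn oil in limma 3.58.1 (R 4.3.3) with an intensity trend, 2-sided, treatment alone, and Benjamini-Hochberg adjustment within a table; the code was tested on simulated data. Nothing in the labels says more of the replicates than that they are biological. Members, gene lists and tests were chosen with earlier results of these data known. Named were called members, members whose groups did not overlap, the largest and smallest values of a class, the cutting subunits and their immune counterparts, and called genes and fixed examples of the pathway list. Replicate numbers did not pair the animals. Other scalings, filters, variance models and array subsets were tried; the SD of each array was added as a covariate after seeing the data.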

Additional observations from a re-analysis of the deposited data

Results flagged for a closer look

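In 3 of 106 gene and group combinations 1 array lay far from the others of its group, where chance gives about 1 in 20. Psmc3, a cap ATPase, read 11.22 in PCN replicate 2 of the first array type and 11.36 to 11.40 in the other 4 PCN animals. Psmc4 read 7.497 in corn oil replicate 4 of the second type and 7.30 in each of the other 3 corn oil animals, whose values were identical. Psmc6 read 10.29 in corn oil replicate 3 of the second type and 9.87 to 9.93 in the other 3.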

How the results depend on the processing

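On the first array type the median log2 fold change of the members (0.28) stayed positive in every alternative run (0.23 to 0.32 with 1 array left out), and the count of 8 calls was 21 with array weights, 5 when centred on the common probe sets, 4 with the array SD as a covariate (chosen after seeing the data), 2 without moderation of variances, 2 with the term for 2 sets of arrays and without corn oil replicate 2 together (7 without that array alone), and 3 to 10 with 1 array left out. The count over all probe sets (361) was 1051 with array weights, 104 without moderation and 154 to 447 with 1 array left out. On the second type the 4 calls became 2 when centred by brightness, 2 after quantile normalization, 8 (3 higher, 5 lower) when centred on the common probe sets, 0 without moderation (5 higher at an unadjusted p below 0.05), 0 with the array SD, and 0 to 5 with 1 array left out. The median there (0.17) was -0.11 when centred on the common probe sets, a shift that also put the median over all probe sets at -0.31, and 0.051 after quantile normalization, 0.043 with the array SD, 0.40 with the filter at the 50th percentile, 0.38 over every member probe set and 0.15 to 0.22 with 1 array left out. The count over all probe sets there (577) was 1475 with array weights, 6493 when centred on the common probe sets, 874 with a common trimmed mean, 46 without moderation, 0 with the array SD (387 higher and 501 lower at an unadjusted p below 0.05) and 84 to 1479 with 1 array left out. The split of higher to lower calls (256 to 105 and 402 to 175) was 214 to 252 and 210 to 6283 when centred on the common probe sets, 256 to 176 and 397 to 477 with a common trimmed mean, 247 to 181 after quantile normalization, 227 to 192 with the array SD and 149 to 161 with the term for 2 sets of arrays and without corn oil replicate 2 on the first type, and 518 to 72 on the second with a common median. With a replicate block the members called were 9 and 1 and the probe sets 239 and 204; same-numbered animals did not deviate together (correlations from -0.30 to 0.28), so the block is no pairing. Of 1031 single-gene values on the first type 53 lost the call, 26 gained it and 37 changed sign, and 915 kept both sign and side of the threshold; on the second, of 219, the numbers were 39, 7, 2 and 171. No gene called as deposited changed sign (0 on either type). Apart from the constructions named, the cause of these shifts was not tested. Members annotated to several genes and changes within the printed intervals could not be judged.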
